A study of Mus musculus with 12 samples.

Results

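The comparison described here is that of 2 striatal cell lines kept at their growth temperature of 33 °C, STHdhQ111/Q111 against STHdhQ7/Q7, over the 6 untreated arrays of 12 in the series. STHdhQ7/Q7 cells (Q7 cells) come from embryos of wild type HdhQ7/Q7 mice, and STHdhQ111/Q111 cells (Q111 cells) from HdhQ111/Q111 knock-in embryos. Both lines were grown in medium with 10% fetal bovine serum and the selection drug G418 and were used up to passage 15, and neither received heat shock or any other treatment here. Each line had 3 arrays. The other 6 arrays held RNA of the same lines after 6 h at 42 °C and share 1 normalization and 1 estimate of the spread with the untreated arrays. Their own line difference is given near the end. The labels name 1 cell line per genotype, so an effect of the huntingtin allele and any other difference between these lines cannot be told apart. Whether the 3 replicates of a line were separate cultures is not stated, so the p-values may rest on technical spread alone, and the number of arrays limits the precision.

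Huntingtin, encoded by Htt, is a large scaffold protein that takes part in vesicle transport and transcription, and an expanded glutamine tract near its start causes Huntington's disease, which first damages the striatum. STHdh cells are widely used as a model of that tissue. They were made from the striatal primordium with a temperature-sensitive large T antigen, which keeps them dividing at the growth temperature, so they are cycling progenitor-like cells rather than mature neurons.

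Levels are log2 values per gene, and a difference is the Q111 mean minus the Q7 mean on that scale, with its standard error (SE). A gene is called, and described as higher or lower in Q111 cells, at an adjusted p under 0.05 in a linear model fitted to all 18193 genes (limma with Benjamini-Hochberg adjustment). Levels at or under 5.14, the highest value of the control probe sets for bacterial genes, are called background range. Where all 3 arrays of a line lie in that range, the fold is given as a bound against 5.14. At 33 °C 1962 genes were called, 10.8% of those tested: 929 were higher in Q111 cells (5.11%) and 1033 lower (5.68%). The median difference over all genes was -0.0041. The median size of the difference, regardless of sign, was 0.1885 over all genes and 1.32 over the called genes. Differences reached at least 2-fold for 1355 genes and at least 16-fold for 114, of which 58 were higher and 56 lower. In 1957 of the 1962 the 3 arrays of one line lay wholly above those of the other, as they did in 27.1% of all genes tested. Pairing the arrays by replicate number (a replicate block) in the 6 untreated arrays alone raised the count to 3600, with 1761 higher and 1839 lower. Where leaving out 1 array or this pairing moves a gene list's count below by over 1.5 times, or ends the call of a gene named below, the change is given beside it. In all, 178 genes were above background range on all Q111 arrays and on no Q7 array, and 203 the other way round, with 159 and 183 of them called. At the edge of the threshold stood F3, which encodes tissue factor (difference 0.82, SE 0.24, adjusted p = 0.0499, not called without Q7 replicate 2 or 3 or Q111 replicate 1, 2 or 3 or with the arrays paired), on the inside and Tdrd7 (difference 0.71, SE 0.21, adjusted p = 0.0501) on the outside.

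**Figure D1:**
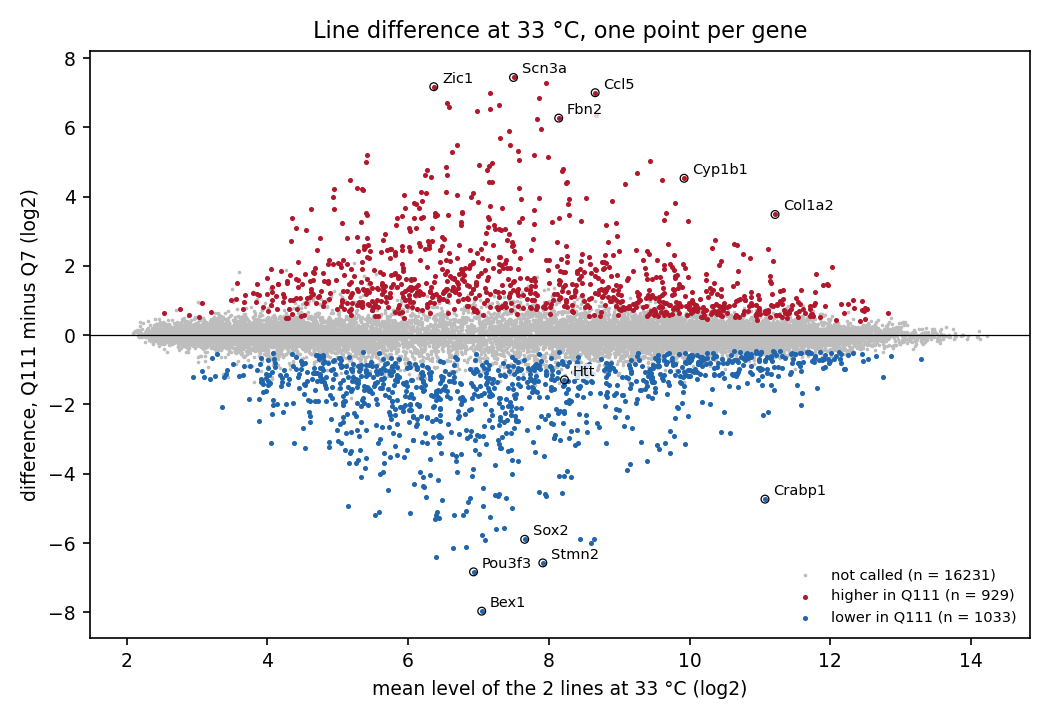
The difference between the lines at 33 °C (vertical axis, log2, Q111 minus Q7) against the mean level of both lines (horizontal axis, log2), with 1 point per gene. The 929 higher and 1033 lower genes spread over most of the range of levels, and the largest differences, such as those of Bex1 and Scn3a, lie at middle mean levels because 1 line is in or near background range.

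Median levels per array lay between 7.29 and 7.47 in all 6 arrays. The level of actin at its 3′ end minus that at its 5′ end, a sign of RNA integrity, was 0.541 ± 0.158 (SD, n = 3) in Q7 and 0.720 ± 0.360 (SD, n = 3) in Q111 cells, with replicate 2 of the Q111 cells highest at 1.14; its part in the differences was not tested. Genes of other cell types were looked at as well. The striatal identity given by the labels is that of the tissue of origin: of 18 genes of striatal projection neurons 7 had a mean above background range in Q7 and 6 in Q111 cells, and Ppp1r1b, Drd1 and Drd2, which define these neurons, were in that range in both lines. Among 15 microglia and macrophage genes Tmem119 and Cd68 had mean levels over 6 in both lines, whereas Ptprc, Itgam, Cx3cr1, P2ry12 and C1qa to C1qc were in background range in both. One of the 15, Aif1, was called lower (1 higher and 2 lower with the arrays paired), with both means in background range.

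Htt itself was lower in Q111 cells. Its levels were 8.75, 8.92 and 8.93 in Q7 cells and 7.51, 7.85 and 7.37 in Q111 cells (difference -1.29, SE 0.17, adjusted p = 0.000265), with no overlap between the lines. Averaged over its 4 probe sets, the difference was -0.77 (adjusted p = 0.0129). In a limma fit of every probe set, those not used above differed by -1.07 (adjusted p = 0.0105), -0.57 (adjusted p = 0.0844) and -0.17 (adjusted p = 0.947). Only the first of these was called. The probe sets do not read the length of the repeat. It was the only gene called of 15 in the list of huntingtin and its partners, which also held Hip1 (0.16), Hap1 (-0.05) and Zdhhc17 (0.10), and 3 of the 15 had an unadjusted p under 0.05. With the arrays paired, 1 was called higher and 3 lower.

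In the genes with the largest differences one line was in or near background range. In bulk RNA, fewer cells with a transcript and less of it per cell cannot be told apart. Among genes lower in Q111 cells, Bex1, an X-linked gene expressed in the brain, came first with levels of 10.98, 11.09 and 11.02 in Q7 cells and 2.88, 3.50 and 2.80 in Q111 cells (difference -7.97, SE 0.19, adjusted p = 2.21e-09), which is at least 59.1-fold lower. Pou3f3, a POU-domain transcription factor of the developing forebrain, was at 10.47, 10.63 and 9.93 in Q7 cells and 3.75, 3.27 and 3.51 in Q111 cells (difference -6.83, SE 0.19, adjusted p = 4.3e-09). Stmn2, a microtubule regulator of growing neurites, was at 10.996, 11.50 and 11.11 in Q7 cells and 4.84, 4.89 and 4.16 in Q111 cells (difference -6.57, SE 0.39, adjusted p = 7.51e-07). For all 3 genes every Q111 array was in background range and every Q7 array was bright. In the same direction went the zinc-finger factor Sall1 (-6.11, SE 0.32), the LIM-homeobox factor Lhx1 (-5.56, SE 0.35), cardiac troponin T, Tnnt2 (-5.88, SE 0.54), the sialomucin Podxl (-5.90, SE 0.21), the engulfment receptor Megf10 (-5.30, SE 0.25), the adaptor Sorbs2 (-5.91, SE 0.54) and the matrix protein Adamtsl3 (-5.58, SE 0.46).

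The genes with the largest positive differences were led by Scn3a, which encodes a voltage-gated sodium channel. Its levels were 2.63, 3.21 and 5.50 in Q7 cells and 11.50, 11.12 and 11.03 in Q111 cells (difference 7.44, SE 0.57, adjusted p = 5.06e-06). The lines did not overlap, although replicate 3 of the Q7 cells stood above the other Q7 arrays and above background range, and the only other Scn3a probe set was not called. Zic1, a zinc-finger transcription factor of the dorsal neural tube and septum, was at 2.90, 2.97 and 2.46 in Q7 cells and 10.00, 9.96 and 9.88 in Q111 cells (difference 7.17, SE 0.43, adjusted p = 9.18e-07), which is at least 28.0-fold higher. Slc43a3, a nucleobase carrier, was at 4.13, 3.65 and 3.24 in Q7 cells and 10.67, 10.55 and 10.77 in Q111 cells (difference 6.99, SE 0.28, adjusted p = 4.44e-08). Both were in background range on every Q7 array. Thbd, the thrombin receptor thrombomodulin (6.86, SE 0.57), Dnajc15, a mitochondrial J-domain protein (6.70, SE 0.43), Sim2, a bHLH-PAS transcription factor (6.64, SE 0.37), and the secreted proteins Ndnf (6.58, SE 0.33) and Lrrc17 (6.54, SE 0.32) differed in the same way. So did Aebp1, a collagen-binding protein (6.36, SE 0.31), Medag (6.24, SE 0.35) and the platelet chemokine gene Ppbp (5.95, SE 0.52).

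**Figure D2:**
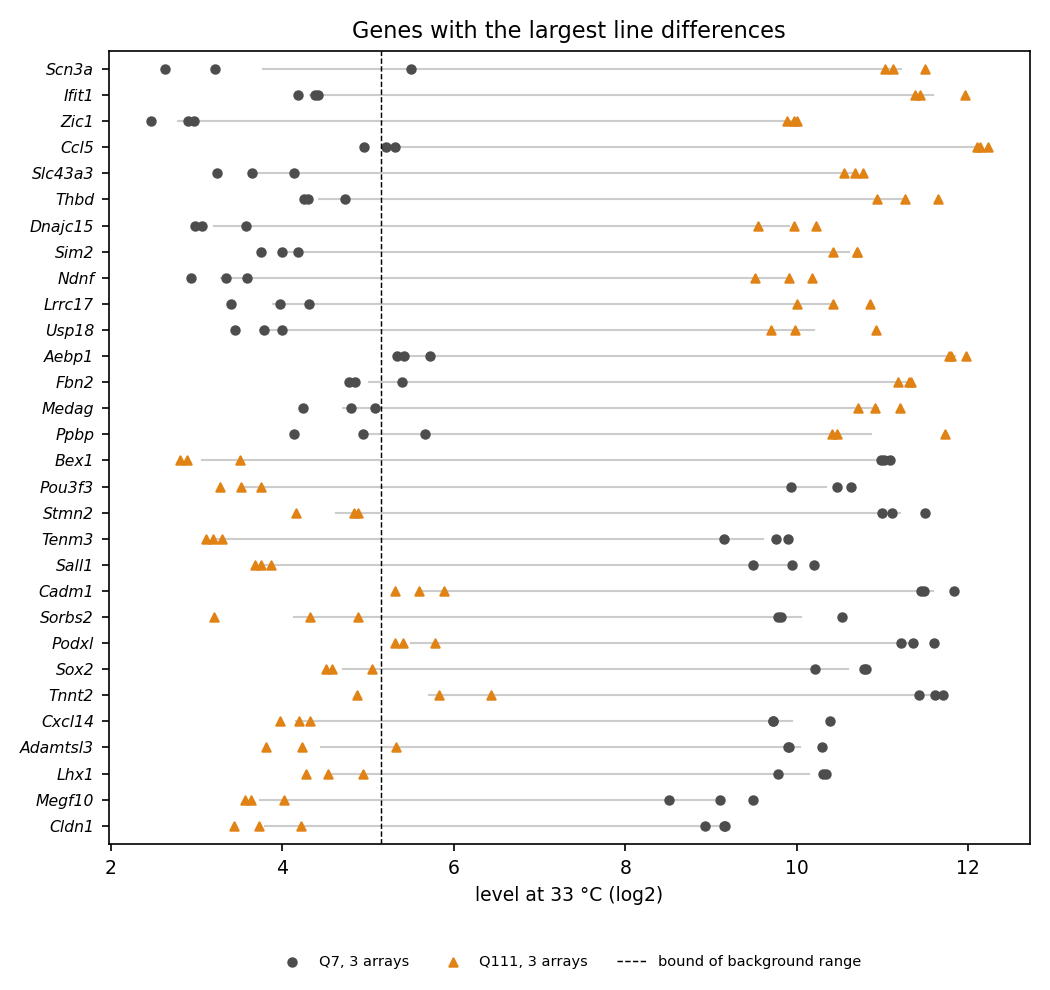
Levels at 33 °C (horizontal axis, log2) of the 15 genes most raised and the 15 most lowered in Q111 cells, predicted genes left out. Each point is 1 of 3 arrays of a line, grey lines join the means and the dashed line is the bound of background range. In every gene shown the arrays of the lines are separate, and in each the mean of 1 line is at most 5.71, near or under the bound of 5.14.

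Among genes that mark neural progenitors most of the called ones were lower. Of 21 measured, 1 was higher and 7 were lower in Q111 cells, 38.1% in all, with a median difference of -0.19. Sox2, the factor that keeps neural progenitors undifferentiated, was at 10.81, 10.78 and 10.21 in Q7 cells and 4.58, 5.04 and 4.51 in Q111 cells (difference -5.89, SE 0.36, adjusted p = 9.26e-07), or at least 43.9-fold lower. Pax6, a homeobox factor of dorsal forebrain progenitors, was at 9.53, 9.43 and 9.80 in Q7 cells and 4.90, 5.35 and 4.74 in Q111 cells (difference -4.59, SE 0.19, adjusted p = 5.34e-08). Nes, which encodes the progenitor filament nestin, was at 9.26, 9.56 and 9.02 in Q7 cells and 5.65, 6.02 and 5.36 in Q111 cells (difference -3.60, SE 0.23, adjusted p = 1.21e-06). The Q111 arrays of Sox2 were all in background range, and those of Nes lay just above it. Id4, an inhibitor of bHLH factors (-4.64, SE 0.40), Sox11 (-4.61, SE 0.27), the lipid-binding protein gene Fabp7 (-2.58) and the RNA-binding protein gene Msi2 (-1.34) were lower too, and Sox9 was higher (1.33, SE 0.29). Vim, the filament shared by progenitors and mesenchyme, was near 13.8 in both lines, and Dlx1 and Dlx2, ventral forebrain factors, were not called, with differences of -0.13 and -0.20.

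Patterning factors of the forebrain followed. Of 25 measured, 2 were higher and 8 were lower (4 higher with the arrays paired). Beside Pax6, the nuclear receptor Nr2f1 (COUP-TFI) was at 10.08, 10.29 and 9.97 in Q7 cells and 5.12, 5.87 and 5.80 in Q111 cells (difference -4.52, SE 0.28, adjusted p = 1.05e-06), and the zinc-finger factor Sp8 and the LIM-homeobox factor Lhx2 differed by -4.39 (SE 0.30) and -3.14 (SE 0.22). Meis2 (-1.44, SE 0.21) and Lhx8 (-1.20) were also lower. Zic1 and Dlx5 (1.10, not called without Q7 replicate 2) were the 2 that were higher. The wider family of homeobox genes outside the Hox clusters had 6 higher and 14 lower of 86, or 23.3%. Pax9 (3.18, SE 0.25), Irx2 (3.10) and Irx3 (2.85), factors of mesenchyme and of anterior-posterior patterning, were among the higher ones, and Zfhx4 (-3.63, SE 0.35) and Pou3f3 among the lower.

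Hox genes, which set position along the body axis and are normally silent in the forebrain, were detected in both lines and differed in both directions. Of 33 measured, 10 were higher and 5 were lower, a share of 45.5% against 10.8% over all genes. Hoxa2 was at 3.30, 3.13 and 2.92 in Q7 cells and 6.93, 6.67 and 6.69 in Q111 cells (difference 3.64, SE 0.17, adjusted p = 1.74e-07), with every Q7 array in background range. Hoxa3 (2.46, SE 0.36), Hoxa4 (1.61, SE 0.24) and Hoxa5 (1.03, SE 0.14) were higher as well, as were Hoxb2 (1.54, not called without Q7 replicate 2 or 3 or Q111 replicate 2 or 3), Hoxb3 (1.15) and Hoxb4 (1.17). Among the lower members, Hoxc8 was at 8.36, 7.95 and 7.66 in Q7 cells and 3.87, 5.09 and 5.71 in Q111 cells (difference -3.10, SE 0.54, adjusted p = 0.00252) and Hoxb13 at 9.02, 9.97 and 9.63 in Q7 cells and 6.62, 6.94 and 6.37 in Q111 cells (difference -2.90, SE 0.26, adjusted p = 1.95e-05). Hoxc10 (-2.73, SE 0.40) and Hoxc13 (-1.58, SE 0.30) were lower too, and Hoxb9 was higher (0.82, SE 0.13). The T-box factors of mesoderm Tbx20 (-4.75, SE 0.51) and Tbx3 (-2.44, SE 0.42) were lower and Tbx15 (1.98, SE 0.23) was higher. The pioneer factor Foxa1 was higher (4.05, SE 0.46), as was Foxc1, a factor of meninges and mesenchyme (2.05, SE 0.27).

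Markers of mesenchyme were present in both lines and some were higher in Q111 cells. Of 19 such genes, 4 were higher and 1 was lower (0 lower without Q7 replicate 2 or Q111 replicate 1, 7 higher with the arrays paired), 26.3% in all. The collagen chain Col1a2 was at 9.91, 9.01 and 9.50 in Q7 cells and 13.01, 12.89 and 12.97 in Q111 cells (difference 3.48, SE 0.21, adjusted p = 9.18e-07), and the receptor Pdgfra and the fibulin Fbln1 differed by 2.43 (SE 0.38) and 4.43 (SE 0.26). All arrays of the Q111 cells were above those of the Q7 cells for these 3 genes. Twist2 was lower (-1.07, SE 0.25, not called without Q7 replicate 2 or Q111 replicate 1). Of genes of contractile mural cells and smooth muscle, Tagln (-2.32, SE 0.36), Acta2 (-1.19, SE 0.17, not called with the mean of all its probe sets) and Mcam (-1.46, SE 0.30) were lower and Anpep was higher (1.02, SE 0.18). Of 17 astrocyte genes 3 were higher and none were lower (0 higher without Q7 replicate 2 or 3, 2 lower without Q111 replicate 2, 2 lower with the arrays paired): the glutamate transporter gene Slc1a3 (1.97, SE 0.46, not called without Q7 replicate 2 or 3 or with the mean of all its probe sets), Glul (0.64, not called without Q7 replicate 2 or 3 or Q111 replicate 1 or with the mean of all its probe sets or median-centred arrays or the 6 arrays alone) and Sparcl1 (0.96, not called without Q7 replicate 2 or 3). Gfap, Aqp4 and S100b, the defining markers, were in background range in both lines. Of 18 genes of striatal projection neurons 1 was higher and 1 was lower (0 higher without Q7 replicate 2 or 3 or Q111 replicate 1 or 2, 2 lower without Q7 replicate 3 or Q111 replicate 1, 2 higher and 3 lower with the arrays paired), 11.1% in all against 10.8% over all genes, with a median difference of 0.04. Tac1, which encodes substance P, was lower (-4.10, SE 0.26) with all Q111 arrays in background range, and the transcription factor gene Foxp1 was higher (0.87, SE 0.22, not called without Q7 replicate 2 or 3 or Q111 replicate 1 or 2 or with the mean of all its probe sets). The imprinted genes, which are read from 1 parental copy, had 3 higher and 4 lower (1 higher without Q7 replicate 3 or Q111 replicate 2 or 3, 8 higher with the arrays paired) of 23, with Mest higher (2.63, SE 0.28) and Ndn (-2.22, SE 0.23) and Nnat (-2.03, SE 0.17) lower. None of the 6 genes of the sex chromosomes was called by limma, and none had an unadjusted p under 0.05. Xist, the RNA that coats the inactive X chromosome, was at 11.82, 11.10 and 11.40 in Q7 cells and 12.34, 11.96 and 11.12 in Q111 cells (difference 0.36, SE 0.33, adjusted p = 0.7), and the 4 Y-linked genes measured were in background range on all 6 arrays.

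**Figure D3:**
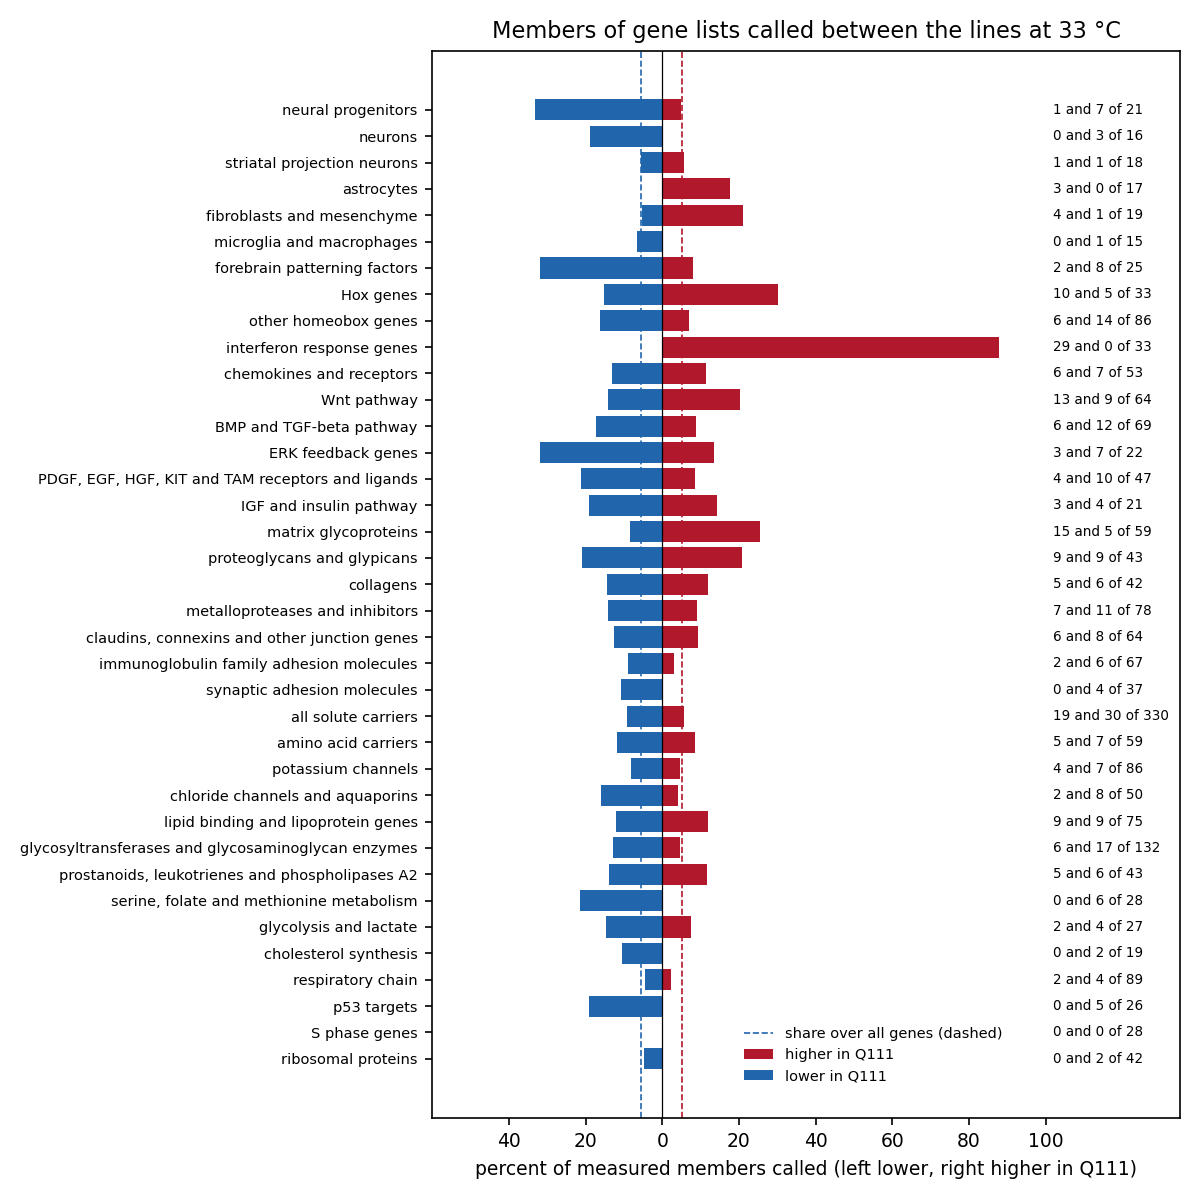
Share of the measured members of 37 gene lists that were called higher (red, to the right) or lower (blue, to the left) in Q111 cells at 33 °C, in percent of members. Counts of higher and lower members and the number measured stand at the right. Dashed lines give the shares over all genes, 5.11% and 5.68%. The interferon response genes have the highest share, 29 of 33, and S phase genes have none.

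Among signalling genes the interferon response had the largest share of called members, 87.9%. Interferons bind receptors that activate STAT and IRF factors, and these switch on antiviral genes through interferon response elements in their promoters. Of 33 such genes 29 were higher and none were lower, with a median difference of 2.12. The median over the list lay between 5.08 and 5.33 on the Q7 arrays and between 7.66 and 8.61 on the Q111 arrays. In Q7 cells 17 members had a mean above background range, in Q111 cells 32. With any 1 array left out, 26 to 28 were called higher.

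Ifit1, whose protein binds viral RNA that lacks a host cap, was at 4.41, 4.38 and 4.18 in Q7 cells and 11.38, 11.44 and 11.96 in Q111 cells (difference 7.27, SE 0.23, adjusted p = 1.13e-08), or at least 87.3-fold higher. Rsad2, which encodes the antiviral enzyme viperin, was at 4.22, 4.66 and 4.58 in Q7 cells and 10.28, 10.31 and 10.54 in Q111 cells (difference 5.89, SE 0.16, adjusted p = 4.3e-09). Usp18, the protease that removes the ubiquitin-like protein ISG15, was at 3.99, 3.79 and 3.45 in Q7 cells and 9.71, 9.98 and 10.93 in Q111 cells (difference 6.46, SE 0.47, adjusted p = 3.52e-06). For these 3 genes all Q7 arrays were in background range and all Q111 arrays were far above it. The nucleic acid sensors and effectors Oasl2 (5.19, SE 0.28), Oas1a (4.78, SE 0.40), Ifih1 (3.38, SE 0.31) and Xaf1 (4.38, SE 0.37) and the GTPase genes Gbp3 (4.10, SE 0.41), Gbp2 (3.82, SE 0.42), Igtp (3.40, SE 0.37) and Mx1 (2.27, SE 0.26) went the same way. The transcription factors of the pathway were higher too: Irf7 was at 5.08, 5.56 and 5.61 in Q7 cells and 7.33, 8.20 and 8.56 in Q111 cells (difference 2.61, SE 0.32, adjusted p = 0.000201), and Irf9 and Stat2 differed by 2.12 (SE 0.20) and 1.41 (SE 0.24). Not called were Ifit2 (0.49), Psmb8 (0.48), Oas2 (0.29) and Bst2 (-0.30). Ifnb1, the gene of interferon beta itself, was at 3.29, 3.70 and 3.56 in Q7 cells and 3.51, 3.44 and 3.63 in Q111 cells (difference 0.01, SE 0.15, adjusted p = 0.992), in background range on every array; it was looked up after the other values had been seen. Several Gbp, Oas and Ifit genes are close paralogs, and probes that read more than 1 of them would blur their separate values.

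Promoters of these genes are shown because the members were called in the same direction; their part in the differences was not tested. Promoter windows of 300 bases (250 before the start site and 50 from it on), from RefSeq on GRCm38.p6, were at hand for 26 of the 33 genes, and the first listed window was used where a gene had several. The interferon response element was searched on both strands as GAAA followed, after 2 bases of any kind, by GAAA; overlapping matches were counted. Of the 26 windows 14 held a match (53.8%), against 437 of 14452 windows of all genes measured (3.02%), 44 of 722 for genes higher in Q111 cells (6.09%) and 20 of 764 for genes lower (2.62%). Without the interferon genes the share among higher genes was 31 of 699 (4.43%). The 4 windows below belong to the genes with the largest differences among those with a match. Capitals mark the matches, and a match on the opposite strand reads TTTC, 2 bases of any kind, then TTTC.
Ifit1, chr19:34640639-34640938, plus strand: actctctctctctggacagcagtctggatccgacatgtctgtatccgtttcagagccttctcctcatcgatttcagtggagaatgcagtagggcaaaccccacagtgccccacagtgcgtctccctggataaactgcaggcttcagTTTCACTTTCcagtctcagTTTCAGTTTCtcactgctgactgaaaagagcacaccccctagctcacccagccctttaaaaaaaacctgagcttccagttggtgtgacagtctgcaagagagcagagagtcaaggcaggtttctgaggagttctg
Rsad2, chr12:26456403-26456702, minus strand: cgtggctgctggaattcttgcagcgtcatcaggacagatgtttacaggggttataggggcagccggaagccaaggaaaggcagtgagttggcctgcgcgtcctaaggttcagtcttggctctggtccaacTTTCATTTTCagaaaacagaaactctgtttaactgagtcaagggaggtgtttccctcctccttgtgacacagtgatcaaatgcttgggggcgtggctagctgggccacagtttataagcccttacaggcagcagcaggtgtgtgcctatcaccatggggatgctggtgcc
Oas1a, chr5:120907476-120907775, minus strand: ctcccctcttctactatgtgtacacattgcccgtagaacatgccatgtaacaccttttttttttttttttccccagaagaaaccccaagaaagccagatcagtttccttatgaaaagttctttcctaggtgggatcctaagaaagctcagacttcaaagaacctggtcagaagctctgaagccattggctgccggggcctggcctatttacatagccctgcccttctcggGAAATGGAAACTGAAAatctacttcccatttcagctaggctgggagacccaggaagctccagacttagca
Gbp3, chr3:142559794-142560093, plus strand: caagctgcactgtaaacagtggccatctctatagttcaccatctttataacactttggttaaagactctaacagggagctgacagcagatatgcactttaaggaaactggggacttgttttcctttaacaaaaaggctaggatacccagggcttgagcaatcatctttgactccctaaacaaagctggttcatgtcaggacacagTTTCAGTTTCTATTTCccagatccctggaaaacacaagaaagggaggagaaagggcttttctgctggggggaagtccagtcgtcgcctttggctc
In Ifit1 the matches began 104 and 85 bases before the start site, in Rsad2 120 bases before it, and in Oas1a and Gbp3 the overlapping pairs lay 20 and 14 and 45 and 39 bases before it. Windows of Oasl2 and Xaf1, which differed by 5.19 and 4.38, held no match in these 300 bases. Bst2, which was not called, held 2.

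**Figure D4:**
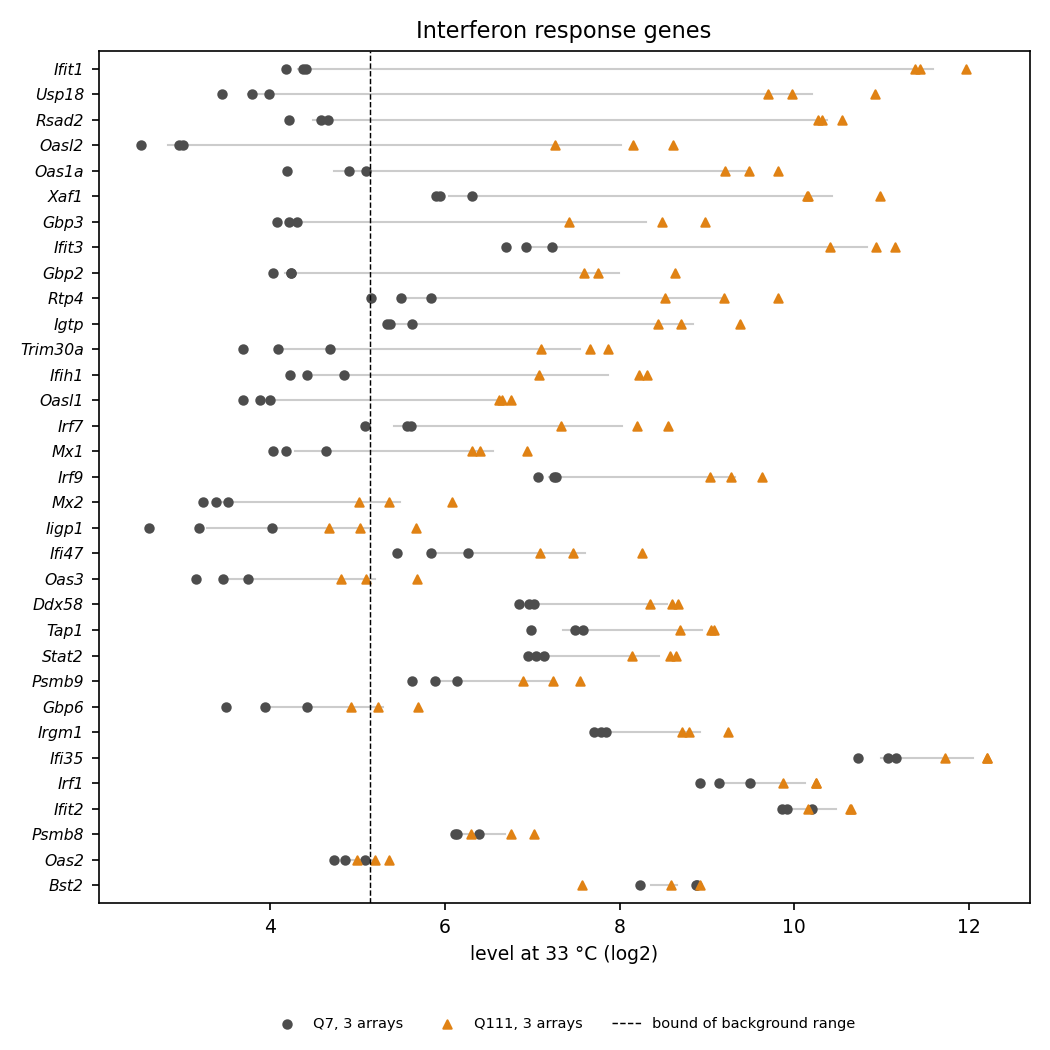
Levels at 33 °C (horizontal axis, log2) of the 33 measured interferon response genes, ordered by their difference. Each point is 1 of 3 arrays of a line, and the dashed line is the bound of background range. The Q111 arrays lie above all Q7 arrays in the upper 29 genes and overlap them in the lowest 4, which were not called.

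Chemokines were called in both directions. Of 53 chemokine and receptor genes 6 were higher and 7 were lower (11 lower with the arrays paired), 24.5% in all. Ccl5, which attracts T cells and monocytes, was at 5.21, 4.95 and 5.31 in Q7 cells and 12.23, 12.13 and 12.11 in Q111 cells (difference 6.999, SE 0.56, adjusted p = 6.73e-06), and Cxcl10, an interferon-induced chemokine, at 7.41, 7.14 and 7.58 in Q7 cells and 11.92, 11.69 and 11.94 in Q111 cells (difference 4.47, SE 0.35, adjusted p = 5.39e-06). Cxcl1, a neutrophil attractant, was higher too (2.52, SE 0.14). On the other side Cxcl14 was at 9.72, 10.38 and 9.72 in Q7 cells and 4.32, 3.97 and 4.19 in Q111 cells (difference -5.78, SE 0.24, adjusted p = 6.48e-08), and the receptor Cxcr6 (-3.31, SE 0.41) and Cxcl12 (-1.18), the ligand that guides progenitors, were lower. Each of these genes had separate arrays in the lines. Of the interleukin and tumour necrosis factor family genes 19.8% were called, of which 13 were higher and 9 were lower (8 higher without Q7 replicate 1 or Q111 replicate 3, 21 higher with the arrays paired). Ltbr, the lymphotoxin beta receptor, was in background range in Q7 cells and high in Q111 cells (5.69, SE 0.39), Il1rn, the natural blocker of interleukin-1, was higher (3.92, SE 0.35), and Il18rap, a subunit of the interleukin-18 receptor, was lower (-3.11, SE 0.18). For MHC class I presentation the counts were 3 higher and 1 lower (5 higher without Q111 replicate 1, 0 lower without Q111 replicate 1, 7 higher with the arrays paired) of 14, the higher ones being the transactivator Nlrc5 (1.92, SE 0.23), the peptide transporter Tap1 (1.59, SE 0.32) and the immunoproteasome subunit Psmb9 (1.34, SE 0.34, not called without Q7 replicate 1 or 3 or Q111 replicate 2 or 3).

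Wnt ligands act through Frizzled receptors and stabilise beta-catenin, which R-spondins strengthen and secreted Dkk and Sfrp proteins block. Of 64 genes of the pathway 13 were higher and 9 were lower (6 to 8 higher without Q7 replicate 3 or Q111 replicate 1), 34.4% called in all. The R-spondin gene Rspo3 was at 2.96, 3.11 and 3.73 in Q7 cells and 7.88, 7.23 and 7.22 in Q111 cells (difference 4.18, SE 0.26, adjusted p = 1.04e-06), with all Q7 arrays in background range, and Rspo2 differed by 3.67 (SE 0.35). The ligand genes Wnt10a (2.25), Wnt10b (1.85) and Wnt6 (1.40) were higher. The inhibitor genes were divided: Dkk2 was at 7.72, 8.29 and 5.92 in Q7 cells and 3.48, 3.22 and 3.72 in Q111 cells (difference -3.84, SE 0.46, adjusted p = 0.000162), Sfrp1 was lower (-2.34, SE 0.36) and Sfrp2 higher (2.59, SE 0.61, not called without Q7 replicate 3). The transcription factor Lef1, itself a target of the pathway, was lower (-1.92), as was the ligand Wnt7a (-2.01).

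In the BMP and TGF-beta pathway, whose ligands signal through SMAD factors and induce Id genes, 6 were higher and 12 were lower (10 higher with the arrays paired) of 69, or 26.1%. The ligand Bmp2 was at 8.41, 8.49 and 7.53 in Q7 cells and 3.91, 4.21 and 4.46 in Q111 cells (difference -3.95, SE 0.41, adjusted p = 5.29e-05). Extracellular antagonists and modulators were lower with it: Chrdl1 was at 8.19, 8.69 and 8.87 in Q7 cells and 3.59, 3.89 and 4.28 in Q111 cells (difference -4.66, SE 0.27, adjusted p = 6.47e-07), Bmper differed by -3.71 (SE 0.34) and Grem1 by -2.68. Targets were lower as well, Id4 as above, Id1 by -2.14 (SE 0.32) and the pseudoreceptor Bambi by -3.11. On the higher side stood TGF-beta genes, among them the matrix protein gene Tgfbi (3.28, SE 0.26), the co-receptor Tgfbr3 (2.74, SE 0.30) and the ligand Tgfb3 (1.90). Of 28 Notch pathway genes 1 was higher and 3 were lower, 14.3% in all against 10.8% over all genes. The counts became 0 higher without Q7 replicate 1 or 3 or Q111 replicate 2 or 3, and 5 lower without Q111 replicate 1. With the arrays paired, 3 were higher and 6 lower. The Notch target genes Nrarp (-4.57, SE 0.36) and Hey1 (-3.31, SE 0.32) and the ligand gene Dner (-2.81, SE 0.27) were lower, while Hes1 (-0.69), another target, was not called. Among Hedgehog genes the factor Gli2 was lower (-2.19, SE 0.24) and the co-receptor Cdon (1.49, SE 0.22) and the acyltransferase Hhat (1.69, SE 0.19) higher.

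Growth factors that act through receptor tyrosine kinases held several ligands that were lower. Of 47 ligands and receptors of the PDGF, EGF, HGF, KIT, TAM, VEGF and other families 4 were higher and 10 were lower, 29.8% in all. The ligand Pdgfd was at 8.14, 7.81 and 8.44 in Q7 cells and 3.17, 2.79 and 2.82 in Q111 cells (difference -5.21, SE 0.24, adjusted p = 1.16e-07), and Pdgfb and the EGF family ligand Btc differed by -3.69 (SE 0.24) and -3.60 (SE 0.29). Each was in background range on all Q111 arrays. Ddr2, a receptor for fibrillar collagen, was higher (3.33, SE 0.23), like Pdgfra. Igf1, the growth factor that signals through the insulin-like receptor, was at 9.74, 9.51 and 9.43 in Q7 cells and 6.67, 6.47 and 6.66 in Q111 cells (difference -2.96, SE 0.24, adjusted p = 7.24e-06), and Artn, a ligand of the GDNF family, differed by -4.01 (SE 0.23). Fibroblast growth factors were divided, with Fgf18 (2.06, SE 0.36) and Fgf7 (1.76, SE 0.23) higher and Fgf15 lower (-1.58, SE 0.22). A list of genes that ERK signalling induces, both inhibitors that dampen it and transcription factors, had 3 higher and 7 lower of 22, or 45.5%. Without Q7 replicate 3 or Q111 replicate 3, 1 was higher. Dusp6, the ERK phosphatase, was at 10.45, 10.20 and 10.17 in Q7 cells and 8.97, 8.72 and 8.51 in Q111 cells (difference -1.54, SE 0.14, adjusted p = 2.39e-05), and Spry4 (-2.33, SE 0.36), Etv4 (-1.72, SE 0.27) and Etv5 (-1.73, SE 0.28) were lower too. The feedback inhibitor Errfi1 was higher (0.78).

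Receptors and second-messenger genes were called in both directions. Of 115 G protein-coupled receptors for amines, lipids, nucleotides and peptides 6 were higher and 8 were lower, 12.2% in all against 10.8% over all genes. Agtr2, the type 2 angiotensin receptor, was at 2.83, 2.81 and 3.19 in Q7 cells and 7.17, 7.23 and 7.84 in Q111 cells (difference 4.47, SE 0.26, adjusted p = 6.42e-07), and the sphingosine phosphate receptor S1pr3 (3.52, SE 0.44) and the natriuretic peptide receptor Npr3 (3.29, SE 0.29) were higher. The prostaglandin E receptor Ptger4 was lower (-3.16, SE 0.43). Of 21 RGS genes 2 were higher and 4 were lower, 28.6% in all. With any 1 array left out 0 to 1 were higher, and 2 were lower without Q7 replicate 2 or 3 or Q111 replicate 1 or 3. Rgs16, which speeds the shut-off of G proteins, was at 9.19, 9.70 and 8.78 in Q7 cells and 4.32, 5.09 and 4.15 in Q111 cells (difference -4.70, SE 0.38, adjusted p = 7.89e-06), and Rgs2 differed by -3.01 (SE 0.22). Of 84 cyclic AMP and protein kinase C genes 7 were higher and 5 were lower (9 lower with the arrays paired), 14.3% in all. Pde3b, which breaks down cyclic AMP, was at 10.03, 9.76 and 9.01 in Q7 cells and 4.91, 4.98 and 4.99 in Q111 cells (difference -4.64, SE 0.28, adjusted p = 9.18e-07), in background range on every Q111 array. In axon guidance the netrin receptors went opposite ways, Unc5c higher (3.66, SE 0.29) and Unc5b lower (-3.41, SE 0.30), as did the semaphorins Sema3e (3.26, SE 0.26) and Sema3a (-1.79, SE 0.30). The retinoic acid-binding protein gene Crabp1 was at 13.42, 13.51 and 13.39 in Q7 cells and 8.04, 9.07 and 9.01 in Q111 cells (difference -4.73, SE 0.41, adjusted p = 1.33e-05), and Cyp26a1, the enzyme that clears retinoic acid, was lower (-2.08, SE 0.29).

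Genes of the extracellular matrix were called in both directions. Of 59 matrix glycoproteins 15 were higher and 5 were lower, which is 33.9% of the list against 10.8% of all genes. Fibrillin-2, Fbn2, a microfibril scaffold, was at 4.85, 5.39 and 4.77 in Q7 cells and 11.33, 11.18 and 11.31 in Q111 cells (difference 6.27, SE 0.36, adjusted p = 6.47e-07), and Mfap5, a microfibril-associated protein, at 7.02, 6.84 and 6.94 in Q7 cells and 11.80, 11.83 and 12.24 in Q111 cells (difference 5.02, SE 0.31, adjusted p = 1.02e-06). Fbln1, Abi3bp (3.28, SE 0.37), Sned1 (2.92, SE 0.49), Emilin1 (2.46, SE 0.41) and the crosslinking enzyme Lox (1.77, SE 0.18) were higher too. Tenascin-C, Tnc (-1.44, SE 0.23), and Fndc1 (-3.34, SE 0.36) were lower. Elastin, Eln, was near background range in both lines and was not called (-0.02), and fibronectin, Fn1, one of the brighter members, was not called either (0.49).

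Proteoglycans had the highest share of called genes among the adhesion lists. Of 43 measured, 9 were higher and 9 were lower, or 41.9%. Aspn, a small leucine-rich proteoglycan that binds collagen, was at 5.65, 4.63 and 5.27 in Q7 cells and 11.45, 9.46 and 10.28 in Q111 cells (difference 5.21, SE 0.53, adjusted p = 4.61e-05), and its relatives Bgn (3.83, SE 0.34), Omd (2.02, SE 0.22) and Ogn (1.25) were higher. Prelp (-2.74, SE 0.27) and Fmod (-2.46, SE 0.46), of the same family, were lower. Among large aggregating proteoglycans Acan was higher (2.47, SE 0.26), and Has2, which makes the hyaluronan they bind, was lower (-1.09). Of 42 collagen genes 5 were higher and 6 were lower, 26.2% in all, with Col6a3 (2.27, SE 0.32) higher beside Col1a2 and the basement membrane chains Col4a6 (-3.25, SE 0.17) and Col18a1 (-2.90, SE 0.23) and the fibrillar Col11a1 (-2.83, SE 0.42) lower. The laminin chain Lama4 was higher (3.99, SE 0.26). Metalloproteases, which include enzymes that cut matrix, and their inhibitors had 7 higher and 11 lower (13 higher with the arrays paired) of 78, or 23.1%. The stromelysin Mmp10 was at 8.997, 9.21 and 8.74 in Q7 cells and 3.65, 3.88 and 3.87 in Q111 cells (difference -5.18, SE 0.24, adjusted p = 1.16e-07), and Mmp3 (-3.02, SE 0.39), Adamts9 (-4.29, SE 0.33) and Adamts12 (-3.48, SE 0.25) were lower too.

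Contacts between cells differed as well. Cadm1, an adhesion molecule of the immunoglobulin family, was at 11.84, 11.48 and 11.45 in Q7 cells and 5.89, 5.59 and 5.31 in Q111 cells (difference -5.99, SE 0.22, adjusted p = 2.66e-08), and all 3 of its other probe sets were called in the same direction. Tenm3, a teneurin that matches synaptic partners, was at 9.90, 9.76 and 9.15 in Q7 cells and 3.30, 3.11 and 3.19 in Q111 cells (difference -6.41, SE 0.25, adjusted p = 3.98e-08), and Tenm4 differed by -2.86 (SE 0.36). The leukocyte ligand Vcam1 (-3.13, SE 0.21), Cd200 (-3.09, SE 0.34) and L1cam, an axonal adhesion molecule (-1.63, SE 0.32), were lower. The genes named so far in this paragraph were lower in Q111 cells. Adhesion genes of the immunoglobulin family had 2 higher and 6 lower of 67, 11.9% in all against 10.8% over all genes. The count higher became 1 without Q7 replicate 1 or 3 or Q111 replicate 1 or 3. Pairing the arrays gave 6 higher and 10 lower. Synaptic adhesion genes had none higher and 4 lower (2 higher with the arrays paired) of 37, or 10.8%. Cldn1, a tight junction strand protein, was at 9.16, 8.93 and 9.15 in Q7 cells and 3.73, 4.22 and 3.44 in Q111 cells (difference -5.29, SE 0.30, adjusted p = 6.42e-07), and the desmosomal Pkp1 at 11.10, 11.19 and 10.84 in Q7 cells and 6.94, 7.66 and 6.90 in Q111 cells (difference -3.88, SE 0.26, adjusted p = 1.66e-06), while Cldn10 was higher (3.27, SE 0.28). Of 64 junction genes 6 were higher and 8 were lower (2 to 3 higher without Q7 replicate 3 or Q111 replicate 2), 21.9% in all. Of the cadherins Cdh1 (-2.33, SE 0.21) and Cdh26 (-3.55, SE 0.27) were lower and Cdh17 higher (3.46, SE 0.34). The clustered protocadherins Pcdhb17 (2.85, SE 0.32), Pcdhb16 (1.70, SE 0.40, not called without Q7 replicate 2 or Q111 replicate 1 or 2) and Pcdhb21 (1.60, SE 0.36, not called without Q7 replicate 3) were higher, and as near-identical family members their separate values are uncertain. Integrin genes had 1 higher and 4 lower (2 higher with the arrays paired) of 24: Itgb7 was higher (2.77, SE 0.37) and the laminin-binding Itga3 (-1.65, SE 0.19), Itga6 (-1.29, SE 0.17) and Itga7 (-2.76, SE 0.25) were lower.

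Of 925 genes that move ions, solutes, lipids or vesicles 13.8% were called. Of 330 solute carriers 19 were higher and 30 were lower (35 higher and 49 lower with the arrays paired), 14.8% in all. Slc2a3, the high-affinity glucose transporter of neurons, was at 10.84, 10.25 and 10.03 in Q7 cells and 6.85, 5.68 and 6.28 in Q111 cells (difference -4.10, SE 0.29, adjusted p = 2.53e-06). The amino acid carriers had 5 higher and 7 lower of 59, or 20.3%, with Slc38a4 higher (3.54, SE 0.25) and the glutamine exchanger Slc1a5 lower (-1.91, SE 0.31). Of 36 ion exchangers and cotransporters 1 was higher and 6 were lower, 19.4% in all (0 higher without Q7 replicate 3 or Q111 replicate 2, 3 higher with the arrays paired). The sodium-proton exchangers Slc9a2 (-2.50, SE 0.32), Slc9a7 (-2.49, SE 0.42) and Slc9a9 (-2.48, SE 0.23) were lower. Of 97 glucose, monocarboxylate and organic ion carriers 3 were higher and 7 were lower (8 higher and 13 lower with the arrays paired), 10.3% in all against 10.8% over all genes. The organic ion carriers Slc22a23 (-3.48, SE 0.25) and Slco5a1 (-3.25, SE 0.25) were lower, and so was the urea carrier Slc14a1 (-3.41, SE 0.25).

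Among 86 potassium channel genes 4 were higher and 7 were lower (8 higher and 11 lower with the arrays paired), 12.8% in all. Kcnip1, a calcium-binding subunit of A-type channels, was at 9.78, 9.91 and 10.23 in Q7 cells and 5.08, 4.86 and 5.02 in Q111 cells (difference -4.98, SE 0.25, adjusted p = 2.35e-07), and Kcnq5, an M-current channel, differed by -3.92 (SE 0.37). Water and chloride channels had 2 higher and 8 lower (1 higher without Q7 replicate 2 or 3 or Q111 replicate 1 or 2, 5 higher with the arrays paired) of 50. The aquaporin Aqp5 was at 10.92, 11.56 and 11.16 in Q7 cells and 7.12, 7.94 and 7.66 in Q111 cells (difference -3.64, SE 0.42, adjusted p = 0.000115), Aqp1 differed by -3.09 (SE 0.36), and the calcium-activated chloride channel Ano1 was higher (1.95, SE 0.28). Of 55 receptor channels for glutamate, GABA, glycine and acetylcholine 1 was called (1 higher without Q111 replicate 1, 3 lower without Q7 replicate 3 or Q111 replicate 2, 3 lower with the arrays paired), the nicotinic subunit Chrna5 (-1.27, SE 0.26), which was lower. In this list 11 genes had a mean above background range in Q7 and 9 in Q111 cells. Lrp2 (megalin), an endocytic receptor of forebrain neuroepithelium, was at 9.12, 9.29 and 9.72 in Q7 cells and 4.43, 4.36 and 3.76 in Q111 cells (difference -5.19, SE 0.28, adjusted p = 3.86e-07), and the sorting receptor Sorl1 was lower (-2.91, SE 0.28). The lipid carriers Apod (3.55, SE 0.24) and Fabp4 (2.61, SE 0.30) were higher.

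Shares of called genes in energy metabolism lay on both sides of the 10.8% over all genes. Of 89 respiratory chain genes 2 were higher and 4 were lower (1 higher without Q7 replicate 1 or 2 or Q111 replicate 1, 2 or 3, 2 lower without Q7 replicate 2 or Q111 replicate 1 or 2, 7 lower with the arrays paired), a share of 6.74%, and of 30 genes of the citrate cycle and pyruvate none were higher and 2 were lower (1 higher without Q7 replicate 3, 1 lower without Q7 replicate 2 or 3 or Q111 replicate 1 or 2, 2 higher with the arrays paired). Of 20 genes of the PGC-1 coactivators and mitochondrial antioxidants 1 was called (2 higher and 3 lower with the arrays paired), catalase, Cat, higher by 0.85 (SE 0.15). Ppargc1a, the mitochondrial coactivator studied in Huntington's disease, was at 7.21, 6.65 and 7.48 in Q7 cells and 6.62, 5.92 and 6.29 in Q111 cells (difference -0.83, SE 0.41, adjusted p = 0.294), and was not called. Cholesterol synthesis had none higher and 2 lower (1 lower without Q7 replicate 1, 2 or 3 or Q111 replicate 1 or 2) of 19, or 10.5%, with a median difference of -0.21, and glycolysis 2 higher and 4 lower (1 higher without Q7 replicate 2 or Q111 replicate 1) of 27, or 22.2%, among them the pyruvate dehydrogenase kinase Pdk4, lower by a difference of -2.37 (SE 0.32), and its relative Pdk1, higher at 1.22 (SE 0.25).

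The called genes of one-carbon metabolism were all lower. Of 28 genes of serine, folate and methionine metabolism none were higher and 6 were lower (1 higher with the arrays paired), 21.4% in all. Cth, which makes cysteine from cystathionine, was at 9.92, 9.77 and 10.95 in Q7 cells and 8.11, 8.48 and 8.21 in Q111 cells (difference -1.95, SE 0.29, adjusted p = 0.000868), and Gldc, the glycine cleavage enzyme, at 7.24, 7.58 and 6.86 in Q7 cells and 5.21, 5.62 and 5.597 in Q111 cells (difference -1.75, SE 0.19, adjusted p = 7.47e-05). The lines were separate in both, with replicate 3 of the Q7 cells highest for Cth. Of 34 genes of glutamate, proline, arginine and polyamine metabolism 3 were higher and 5 were lower, 23.5% in all. With any 1 array left out 0 to 1 were higher, and 6 with the arrays paired. Prodh, which starts proline breakdown, was lower (-1.64, SE 0.15), as was Ckb, the brain creatine kinase (-2.28, SE 0.42). In purine and pyrimidine metabolism 4 of 37 genes were higher and 4 were lower, 21.6% in all (2 higher without Q7 replicate 2 or Q111 replicate 2, 2 lower without Q111 replicate 1 or 3). The uridine phosphorylase Upp1 was at 8.40, 9.40 and 9.003 in Q7 cells and 5.47, 5.86 and 5.71 in Q111 cells (difference -3.26, SE 0.31, adjusted p = 2.66e-05), and the ecto-nucleotidase Entpd2 was lower (-2.92, SE 0.25).

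Enzymes that handle lipids, sterols and foreign compounds held the largest metabolic differences. Akr1c18, the 20-alpha-hydroxysteroid dehydrogenase, was at 9.14, 10.06 and 8.57 in Q7 cells and 3.91, 4.02 and 4.25 in Q111 cells (difference -5.20, SE 0.32, adjusted p = 9.32e-07), and its paralog Akr1c19 differed by -2.51 (SE 0.27). Cyp1b1, a steroid and hydrocarbon hydroxylase, was at 7.88, 7.97 and 7.12 in Q7 cells and 12.44, 11.94 and 12.18 in Q111 cells (difference 4.53, SE 0.45, adjusted p = 3.7e-05). Ptgr2, which reduces keto-prostaglandins, was at 3.64, 3.95 and 4.22 in Q7 cells and 9.41, 9.45 and 9.46 in Q111 cells (difference 5.50, SE 0.25, adjusted p = 1.05e-07). All 3 had separate arrays, the first lower and the other two higher in Q111 cells. The prostaglandin E synthase Ptges (4.43, SE 0.37) and the prostacyclin synthase Ptgis (2.15, SE 0.32) were higher, while the prostaglandin D synthase Ptgds was lower (-1.81, SE 0.40, not called without Q111 replicate 2). Of 54 glutathione and NRF2 target genes 5 were higher and 3 were lower (3 higher without Q7 replicate 1 or 2 or Q111 replicate 1, 5 lower with the arrays paired), 14.8% in all against 10.8% over all genes. Gstk1, a mitochondrial glutathione transferase, was at 7.14, 7.33 and 8.06 in Q7 cells and 3.70, 4.52 and 3.74 in Q111 cells (difference -3.52, SE 0.30, adjusted p = 1.22e-05), and the peroxidase Gpx7 of the endoplasmic reticulum was higher (3.79, SE 0.41). Of 132 glycosyltransferases and glycosaminoglycan enzymes 6 were higher and 17 were lower (13 higher with the arrays paired), 17.4% in all, with B4galnt2 (-3.44, SE 0.23), B3gnt5 (-2.92, SE 0.30), the heparan 3-O-sulfotransferase Hs3st3b1 (-2.74, SE 0.36) and the polysialyltransferase St8sia2 (-2.20) lower and B3gnt9 higher (3.07, SE 0.33). Sulf1, which trims sulfate from heparan sulfate, was higher (3.74, SE 0.24).

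Of the 195 genes in the lists of general cell state 8.72% were called, near the 10.8% over all genes. None of 28 S phase genes was called by limma, and 1 of them had an unadjusted p under 0.05. Of 29 mitosis genes 1 was higher and 1 was lower (0 higher without Q111 replicate 3, 0 lower without Q7 replicate 2 or Q111 replicate 1 or 2, 2 lower with the arrays paired), and of 42 ribosomal protein genes none were higher and 2 were lower. Of 27 cytosolic chaperones 1 was higher and 2 were lower (0 higher without Q7 replicate 2 or 3 or Q111 replicate 1 or 2, 1 lower without Q7 replicate 2 or 3 or Q111 replicate 1 or 3), and differences were under 1 in size for the 3 of them. Targets of p53 had none higher and 5 lower (1 to 3 lower without Q7 replicate 2 or 3 or Q111 replicate 2 or 3) of 26, a share of 19.2%, with a median difference of -0.32. Cdkn1a, the p21 cell cycle inhibitor, was lower (-1.14, SE 0.25, not called without Q111 replicate 2 or 3), as was Perp (-0.91, SE 0.18). Bdnf, the striatal survival factor, was at 9.84, 9.24 and 8.75 in Q7 cells and 10.36, 10.07 and 9.63 in Q111 cells (difference 0.74, SE 0.26, adjusted p = 0.107), and Rest, the repressor of neuronal genes, at 11.80, 11.22 and 11.30 in Q7 cells and 12.19, 11.77 and 11.84 in Q111 cells (difference 0.49, SE 0.18, adjusted p = 0.122); neither was called. Of 28 genes tied to Bdnf and Rest 1 was higher and 3 were lower (0 to 2 higher without Q7 replicate 1 or 3 or Q111 replicate 2, 5 lower without Q7 replicate 3, 3 higher and 6 lower with the arrays paired), led by Stmn2.

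The 6 heat-shocked arrays, which share no array with this comparison but enter the same fit, gave the same direction for most genes. Of the 1962 genes called at 33 °C, 1765 had the same sign after heat shock, or 90.0% (88.5 to 91.3, exact Clopper-Pearson interval at 95%, over genes, which are not independent). Of them 1094, or 55.8% of the 1962, were also called in the heat-shocked arrays with the same sign, and 26 of the 1962 were called with the opposite sign. In those arrays 22.1% of all genes were called in either direction. The share of all genes with the same sign at both temperatures was not counted. The median size of the difference of the 1962 genes was 1.32 at 33 °C and 0.851 after heat shock. They were chosen by the former. Of the 114 genes at least 16-fold apart at 33 °C, 113 kept their sign, and 3 were not called again with it. Bex1 (-7.80, SE 0.19), Sall1 (-6.13, SE 0.32), Sox2 (-6.99, SE 0.36), Zic1 (6.08, SE 0.43) and Dnajc15 (6.35, SE 0.43) had the same direction after heat shock, at the differences given, and their change with heat shock was not called. Sprr2h, named after its values were seen, was the exception: it differed by -5.12 (SE 0.30) at 33 °C and by 0.02 (SE 0.30) after heat shock, when both lines were in background range. The change of the line difference with heat shock passed its own test for 372 of the 1962 genes, and for 5.72% of all genes. Dusp6 turned from lower to higher (0.68, SE 0.14, after heat shock), as did Pde1a, from -1.41 (SE 0.28, not called with the mean of all its probe sets) to 1.36 (SE 0.28). Six5 went from 1.33 (SE 0.30, not called without Q111 replicate 2) to -1.91 (SE 0.30) and Irgm1 from 1.14 (SE 0.20) to -1.20 (SE 0.20). Of the 29 interferon response genes called at 33 °C, 25 had the same sign and 15 were called again with it.

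**Figure D5:**
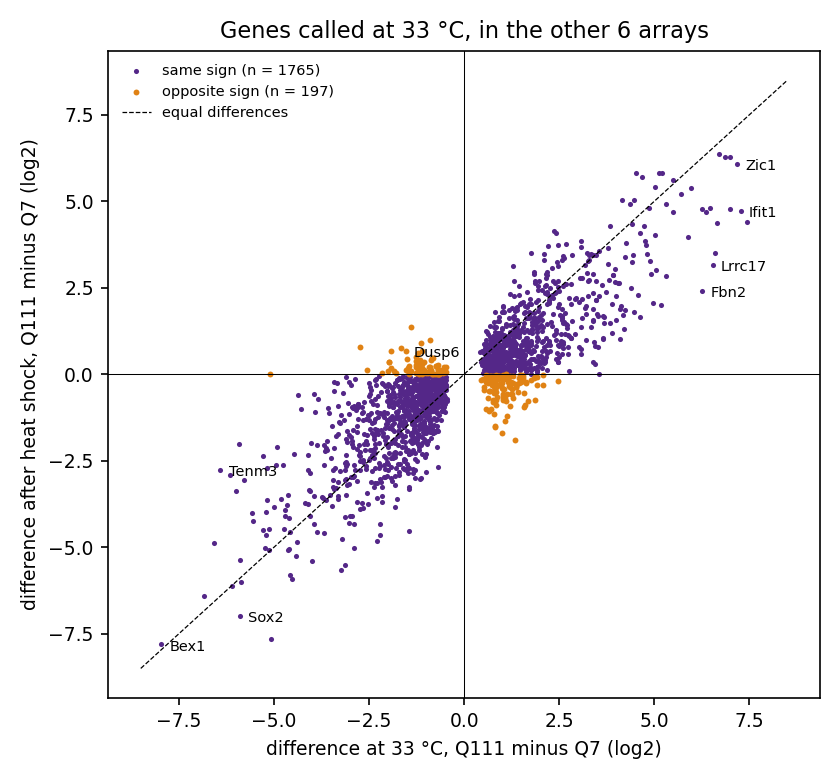
The difference between the lines after heat shock (vertical axis, log2, Q111 minus Q7) against that at 33 °C (horizontal axis, log2) for the 1962 genes called at 33 °C. Points in the upper right and lower left, 1765 of them, have the same sign, and 93 of the 114 genes at least 16-fold apart at 33 °C lie nearer to 0 after heat shock.

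Called genes were also placed in the gene order of the reference, to see how often neighbours had 1 direction. Of 925 higher genes with a next measured gene 119 were followed by another higher gene, 12.9% against 5.11%, and of 1031 lower genes 113 by another lower one, against 5.68% over all genes. Runs of at least 3 neighbours with 1 direction numbered 15 for higher and 13 for lower genes. The longest held 7 higher genes, Tmem199, Poldip2, Tnfaip1, Ift20, Tmem97, Nlk and Ccnq. Another held 6, Skap2, Hoxa2, Hoxa3, Gm15050, Hoxa4 and Hoxa5. Some of the others were paralog clusters, such as the 4 genes Gbp7, Gbp3, Gbp2b and Gbp2 and the 3 proteoglycan genes Aspn, Omd and Ogn. Further higher runs were not paralog clusters, among them Inpp5k, Myo1c and Crk, and Ripk3, Nfatc4 and Nynrin. Close paralogs can share probes, and this was not tested here. The longest lower runs were Paqr9, Pcolce2, Trpc1 and Pls1, and Zfp287, Zfp286, Trim16 and Fbxw10.

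Promoter composition was described for all called genes as well. Median GC content was 59.3% in 722 windows of higher genes, 61.7% in 764 of lower genes and 58.7% in all 14452, and the observed over expected CpG ratio was 0.625, 0.702 and 0.674. The letters TATAAA occurred in 10.5%, 9.03% and 9.87% of the 3 sets, the E-box letters CAGCTG in 19.7%, 15.7% and 16.1%, and those of an AP-1 site, TGANTCA, in 8.03%, 7.07% and 6.33%, on either strand. The ETS letters GGAAGT were found in 21.5% and 22.1% of higher and lower genes against 26.0% of all, and the SOX letters CATTGT in 6.79% and 6.54% against 9.27%. These are descriptions of letters in fixed windows, with no test.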

How the data were processed

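Total RNA of 12 samples of mouse striatal cells was hybridised to 1-colour Affymetrix arrays, of which the 6 untreated ones make up the comparison. Per the submitters' processing notes RMA made the values, which the authors deposited as log2 levels per probe set. Its version and the chip definition were not given in sources used here. The table held 45101 probe sets, of which 64 were controls, 34945 named 1 gene in the platform annotation, 932 named several and 9160 named none here. RMA shares information across arrays, so the arrays were not normalised independently, and scanner files were not analysed here.

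For each of 18193 genes 1 probe set was used, that of the highest mean in the 12 arrays. limma 3.58.1 in R 4.3.3 fitted 4 group means to all 12 arrays with empirical Bayes moderation (8 residual and 3.23 prior degrees of freedom), and p-values were adjusted by the Benjamini-Hochberg method. The script was tested on simulated data. Tables and figures used python 3.11.15, pandas 2.3.3 and matplotlib 3.10.9. No 2 replicates held the same values (pairwise r 0.986 to 0.992).

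Same-numbered untreated arrays of the 2 lines deviated together from their group means (r = 0.516, 0.402 and 0.577 over genes), and differently numbered ones did not (-0.426 to -0.0849). Deviations from a group mean cancel out within a line, so the negative values largely follow from the positive ones. The numbers come from the sample titles, and they were treated as pairing the arrays only in the alternative runs with a replicate block. The main fit, which gave the calls, SEs and adjusted p-values of the text, held no term for the pairing.

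The text names the 15 largest differences each way among called genes with separate arrays, up to 4 called members of each of 93 gene lists (3899 genes), 7 genes fixed by name, uncalled list members and 1 gene on each side of the threshold. Another 64 genes were chosen after their values were seen: Abi3bp, Acan, Ano1, Bambi, Col6a3, Cxcl1, Cxcl12, Dlx5, Emilin1, Errfi1, Fabp4, Fabp7, Fmod, Gbp2, Gbp3, Grem1, Has2, Hoxa3, Hoxa4, Hoxa5, Hoxb2, Hoxb3, Hoxb4, Hoxb9, Hoxc13, Hs3st3b1, Ifih1, Ifnb1, Igtp, Irf7, Irf9, Irgm1, Irx2, Irx3, Lef1, Lhx2, Lhx8, Lox, Meis2, Mmp3, Msi2, Mx1, Oas1a, Ogn, Omd, Pax9, Pde1a, Sfrp1, Six5, Slc14a1, Slc1a5, Sned1, Sox9, Sprr2h, St8sia2, Stat2, Tgfb3, Tgfbi, Tnc, Wnt10a, Wnt10b, Wnt6, Wnt7a and Xaf1. The comparison, the lists and their members were chosen with earlier results of these data known, so list counts describe the lists and test nothing. Alternatives tried were other probe set rules, filters on low levels, scalings, variance models, array weights, the 6 arrays alone, the pairing, a stricter threshold and leaving out each array.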

Additional observations from a re-analysis of the deposited data

Results flagged for a closer look

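Among the 30 genes with the largest differences and the genes fixed by name, 36 in all, 13 had a line difference that changed with heat shock by the test of the change itself (limma, adjusted over all genes), and in all 13 it was nearer to 0 after heat shock. The genes were chosen by their values at 33 °C. The change (the difference after heat shock minus that at 33 °C, log2) was -2.56 for Ifit1 (adjusted p = 0.00269), -2.22 for Slc43a3 (adjusted p = 0.0106), -2.27 for Sim2 (adjusted p = 0.0296) and -3.08 for Ndnf (adjusted p = 0.00622). It was -3.37 for Lrrc17 (adjusted p = 0.00317), -1.67 for Aebp1 (adjusted p = 0.0484) and -3.86 for Fbn2 (adjusted p = 0.00316). Among genes lower in Q111 cells it was 3.64 for Tenm3 (adjusted p = 0.00144), 2.62 for Cadm1 (adjusted p = 0.00209), 3.90 for Sorbs2 (adjusted p = 0.0158), 2.74 for Cxcl14 (adjusted p = 0.00265), 2.93 for Cldn1 (adjusted p = 0.00444) and 1.40 for Nes (adjusted p = 0.0297). Fbn2 still differed by 2.41 and Sorbs2 by -2.01 after heat shock. Signs were the same at both temperatures for all 13.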

How the results depend on the processing

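No called difference of a named gene, Htt's included, reversed its direction in any alternative run. Lower called genes outnumbered higher ones in each alternative run except with arrays centred on ribosomal protein genes, which gave 979 higher and 949 lower. Taking only genes at or above the median level left 1046 called genes, 512 higher and 534 lower, of which 563 differed at least 2-fold, since fewer genes were tested. An adjusted p under 0.01 left 1255, with 579 higher and 676 lower. The replicate block in the 6 untreated arrays alone gave 3600 (1761 higher and 1839 lower), and the replicate block in the fit of 12 arrays gave 2104. The block in the untreated arrays alone raised 81 of 186 list counts by over 1.5 times and lowered none by that much. With 1 array left out, called genes numbered 1470 to 1669, higher ones 715 to 772, lower ones 755 to 922 and those at least 2-fold 1176 to 1294. The Htt difference lay between -1.42 and -1.19. The share with the same sign after heat shock was 83.9% with arrays centred on the median of their genes, 86.2% with array weights and 88.2% with the replicate block in 12 arrays, and 89.8% to 91.8% without 1 array; the cause was not tested. Of 383 named genes besides Htt, 318 had the same call in every alternative run, 56 lost a call without at least 1 array and 12 with the mean of all probe sets. Of 704 called genes with another probe set above background range, 416 had one called in the same direction, none had one called in the opposite direction, and 387 had at least 1 that was not called. Centring moved the median of all differences by at most 0.0316. Array signal sets a limit at background range, where both means of 120 called genes lay.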
